A study of Homo sapiens with 12 samples.

Results

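KLF9, HR, FURIN, ADSSL1, C2orf54 and FAM129A were followed in SW1736 cells. They are 6 of the 56832 gene symbols counted, and all 6 passed the filter on low counts that left 14431 genes for testing. They were picked by symbol, as known targets of the thyroid hormone triiodothyronine (T3) together with genes that T3 moved in empty-vector cells of this same experiment. Levels in the empty-vector libraries therefore helped to choose them. Levels, ranks and any count of these genes passing a threshold in those libraries are given as a description and not as a test. SW1736 is an established cell line from an anaplastic thyroid cancer, a tumour type that has lost most thyroid features. Cells carried either a pCDH vector for stable expression of thyroid hormone receptor beta (TRB, gene THRB) or the empty pCDH vector (EV), and every group was starved of hormone for 24 h before treatment. The 4 groups of 3 RNA-seq libraries were EV cells given the sodium hydroxide vehicle for 24 h, EV cells given 10 nM T3 for 24 h, and TRB cells given each of these for the same time. The labels do not say whether each vector line was a clone or a pool, or whether the replicates were separate cultures, so a p-value here measures only the spread between these libraries.

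T3 enters the nucleus and binds thyroid hormone receptors, which sit on DNA as partners of the retinoid X receptor. Without hormone, a receptor on a positive target gene recruits corepressors; with hormone it exchanges them for coactivators and transcription rises. The classical binding site is a direct repeat of the half-site AGGTCA with 4 bases between the copies. KLF9 (a zinc-finger transcription factor) and HR (Hairless, a nuclear corepressor that binds thyroid hormone and vitamin D receptors) are textbook T3 targets in brain. FURIN is a protease that cuts proproteins in the secretory pathway. ADSSL1, also called ADSS1, is the muscle-type adenylosuccinate synthetase of purine metabolism. C2orf54 is now named MAB21L4, and FAM129A (Niban, now NIBAN1) is a stress-responsive protein.

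KLF9 lies on chromosome 9 (chr9:70384597-70414624, minus strand), FURIN on chromosome 15 (chr15:90868592-90883458, plus strand) and ADSSL1 on chromosome 14 (chr14:104724186-104747325, plus strand). C2orf54 lies on chromosome 2 (chr2:240886048-240896889, minus strand) and FAM129A on chromosome 1 (chr1:184790724-184974550, minus strand). These are gene spans of GENCODE release 29 on GRCh38, the build named in the submitters' processing notes as hg38. No exon of the 6 genes overlaps an exon of another gene in that annotation. A single upstream stretch is shown for each of these 5 genes, because a receptor site close to the start would lie there; KLF9, FURIN, ADSSL1 and C2orf54 rose with T3 in TRB cells and FAM129A fell. The sequences are RefSeq's on GRCh38.p14, read 5′ to 3′ on the gene's strand, from up to 250 bases before an annotated start, with bases in exons left out. Capitals mark the half-site AGGTCA, or TGACCT where it is on the opposite strand. The stretches are chr9:70414658-70414907 for KLF9, chr15:90871918-90872167 for FURIN, chr14:104723979-104724185 for ADSSL1, chr2:240896157-240896406 for C2orf54 and chr1:184974551-184974758 for FAM129A.
KLF9: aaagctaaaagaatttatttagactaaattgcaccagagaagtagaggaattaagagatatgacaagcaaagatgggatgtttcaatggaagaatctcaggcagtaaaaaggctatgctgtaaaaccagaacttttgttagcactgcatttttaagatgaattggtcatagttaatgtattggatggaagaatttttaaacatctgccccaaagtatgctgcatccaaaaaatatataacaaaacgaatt
FURIN: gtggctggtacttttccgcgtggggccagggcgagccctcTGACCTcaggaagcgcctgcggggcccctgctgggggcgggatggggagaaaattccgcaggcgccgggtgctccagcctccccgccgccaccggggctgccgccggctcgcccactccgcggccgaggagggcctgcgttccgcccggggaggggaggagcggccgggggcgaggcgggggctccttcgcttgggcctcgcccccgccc
ADSSL1: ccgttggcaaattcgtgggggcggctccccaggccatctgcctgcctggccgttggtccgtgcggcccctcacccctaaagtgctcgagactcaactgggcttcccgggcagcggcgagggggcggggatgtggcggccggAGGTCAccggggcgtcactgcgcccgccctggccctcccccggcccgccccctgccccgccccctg
C2orf54: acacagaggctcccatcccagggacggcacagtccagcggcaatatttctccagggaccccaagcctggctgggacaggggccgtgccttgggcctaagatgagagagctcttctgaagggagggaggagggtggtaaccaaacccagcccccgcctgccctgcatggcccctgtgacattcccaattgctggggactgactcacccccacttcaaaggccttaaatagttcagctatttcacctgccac
FAM129A: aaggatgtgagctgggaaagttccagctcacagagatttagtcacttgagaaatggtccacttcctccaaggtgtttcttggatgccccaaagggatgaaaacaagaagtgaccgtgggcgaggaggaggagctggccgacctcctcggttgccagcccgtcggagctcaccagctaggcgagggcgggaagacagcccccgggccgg

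The 5 genes have 10 such stretches between them, 1 for each annotated start, and 2 of the 10 (20%) held the half-site on either strand. Of the 4 FURIN stretches only the printed one held it, 210 bases before that start on the minus strand. That start is 1 of 4 and lies inside the gene span given above. Of the 2 ADSSL1 stretches the printed one held it, 109 bases before that start on the plus strand. Among all 35116 windows of the RefSeq table, 12.1% held the half-site. Bases in exons were not left out of those windows, so the 2 shares are not over like stretches. The full repeat, AGGTCA followed by any 4 bases and a further AGGTCA on either strand, was in none of the 10 and in 0.0142% of all those windows. The KLF9 stretch was rich in A and T (32.4% G and C), whereas the printed ones of FURIN and ADSSL1 held 78.0% and 75.8%. The other FURIN stretches held 80.7%, 51.6% and 55.2%, and the other ADSSL1 stretch 77.1%. A match of letters is a description and not a bound site, and its absence says only that the letters are not in this window.

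Counts in genes ranged from 3819306 to 13086717 per library, the lowest in EV with T3 replicate 3. The share set aside as not uniquely aligned was 69.6% to 92.0% in EV with T3 and 33.1% to 66.3% in EV with vehicle. The biological coefficient of variation was 0.218 and 0.0923 in these 2 groups. The part of this gap in the EV values below was not tested. THRB stood at 12.3 to 18.3 counts scaled to a common library size (CPM) in the EV libraries, 79.8 to 80.4 in TRB with vehicle and 190.3 to 322 in TRB with T3. Each library thus matched its vector label, and the receptor transcript was higher with T3 than with vehicle in TRB cells. Of 4 epithelial markers, EPCAM, CDH1, KRT8 and KRT18 were all expressed, each at 135 CPM or more in every library. Of 9 thyroid markers TSHR and FOXE1 had no count, and the summed level was 1.44 to 5.55 CPM in TRB with T3 against 8.48 to 11.1 in TRB with vehicle. In EV cells that sum was 6.64 to 7.59 CPM with T3 and 7.17 to 8.91 with vehicle. The ranges for TRB with T3 include replicate 2, described below. Of 5 mesenchymal markers COL1A2 had no count and VIM reached 1.51 CPM, while the sum, mostly FN1 and COL1A1, was 149 to 317 CPM in TRB with T3 and 88.3 to 108 in EV with T3 against 33.4 to 38.6 in both vehicle groups. Of 4 leukocyte markers CD3E had no count, and the sum, mostly CD14, was 0.689 to 0.839 CPM in TRB with vehicle, 0.180 to 9.87 in TRB with T3, 0.817 to 1.09 in EV with vehicle and 0.740 to 3.29 in EV with T3. Of 3 endothelial markers CDH5 had no count and the sum reached 0.317 CPM. The part of these markers and of the THRB level in the results below was not tested, and in bulk RNA fewer cells of a type and less RNA per cell cannot be told apart. TRB with T3 replicate 2 stood apart from the other libraries. Across 12485 tested genes with a GC value, the gap in log2 CPM between this library and its fellow replicates fell with GC content (Spearman's rho -0.88). The biological coefficient of variation was 0.329 over all 12 libraries and 0.131 over the other 11, so tested values of the named genes are given with 12 and with 11.

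**Figure D1:**
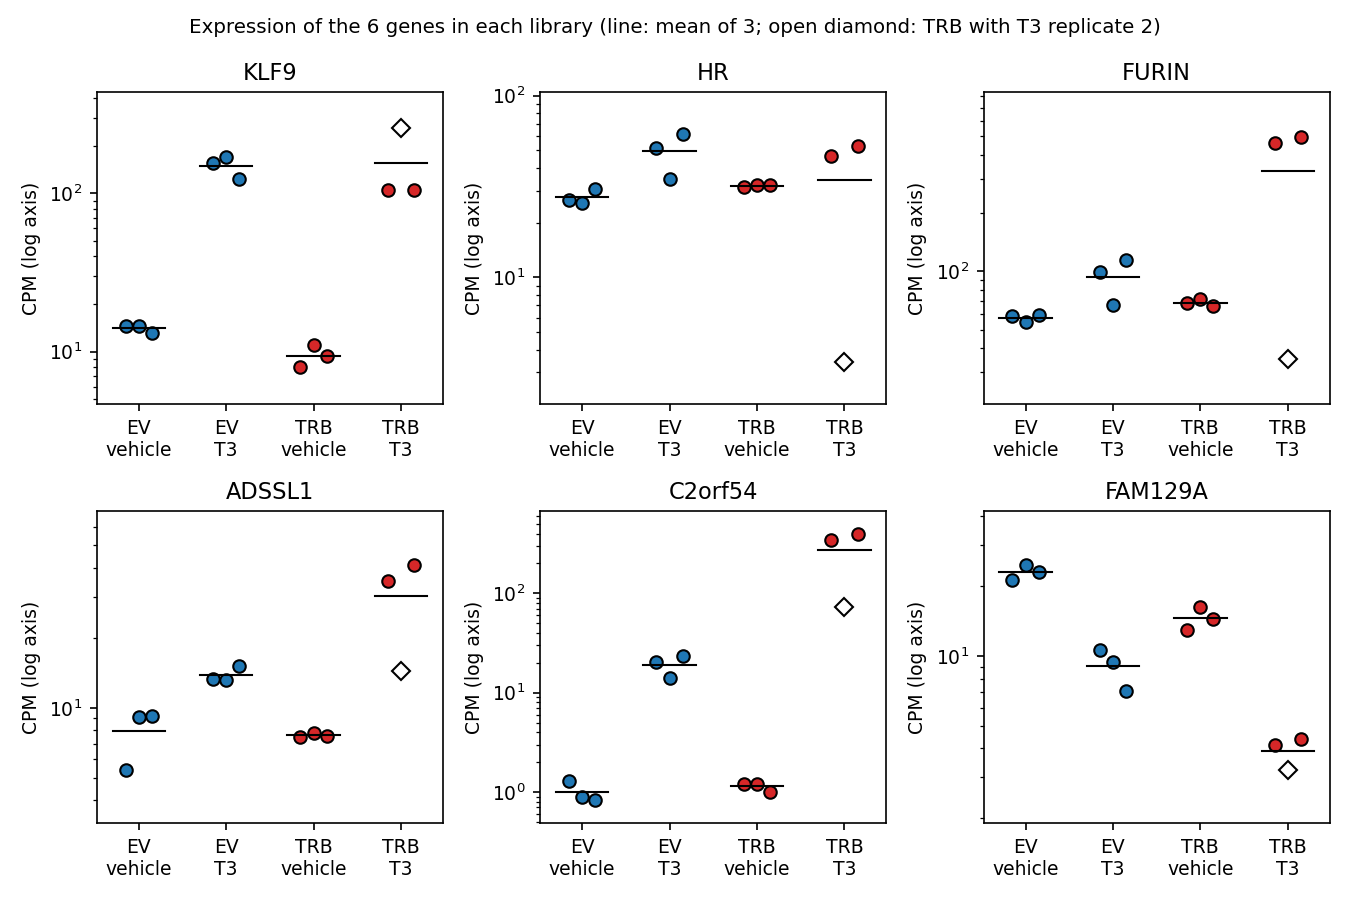
Expression of the 6 genes in CPM (y axis, log scale, a different range for each gene) in each library of the 4 groups (x axis); points are libraries, lines are group means of 3 and the open diamond is TRB with T3 replicate 2. In the TRB group with T3 the diamond lies above the other points for KLF9 (257 CPM) and far below them for HR (3.42) and FURIN (35.1).

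T3 raised KLF9, FURIN, ADSSL1 and C2orf54 and lowered FAM129A in TRB cells, by 3.97-fold to 237-fold upward and 3.73-fold downward in mean CPM. HR did not pass with all 12 libraries and rose 1.56-fold without TRB with T3 replicate 2. In edgeR's quasi-likelihood test at an adjusted p of 0.05, 5 of the 6 genes were called, where 14.7% of all tested genes were. With 11 libraries all 6 were called, where 33.3% of genes were. The T3 and vehicle libraries of TRB cells did not overlap for 4 of 6 genes (40.8% of all tested genes), and for 6 of 6 without replicate 2 (66.8%). This contrast used no empty-vector library for its means, although the spread was estimated over all groups.

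KLF9, the transcription factor, had its lowest values in TRB cells without hormone. It measured 7.93, 10.9 and 9.32 CPM in TRB with vehicle and 104, 257 and 105 CPM in TRB with T3. In EV cells it measured 14.6, 14.5 and 13.1 CPM with vehicle and 155, 169 and 123 CPM with T3. The T3 libraries lay above the vehicle libraries in both kinds of cell without overlap. In TRB cells the mean rose from 9.40 ± 1.51 CPM (SD, n = 3) to 156 ± 88.0, or to 105 ± 0.732 (n = 2) without replicate 2. The log2 fold change was 4.05 (SE 0.368, 95% interval 3.23 to 4.86, edgeR adjusted p = 5.25e-05), the 100th highest of 14431. It was 3.52 (SE 0.165, adjusted p = 8.92e-09) with 11 libraries. In EV cells the ratio of means was 10.6, the 10th highest log2 fold change. Replicate 2 was thus the high outlier for this gene and made the TRB ratio 16.6 in place of 11.2.

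HR, the corepressor, was a gene whose reading turned on a single library, TRB with T3 replicate 2. FURIN, described next, was also far lower in that library than in its fellow replicates. In TRB cells HR measured 31.2, 32.1 and 32.3 CPM with vehicle, and 46.4, 3.42 and 52.7 CPM with T3. The low value is 19 counts. Replicates 1 and 3 with T3 lay above every vehicle library, and replicate 2 lay far below them all. The log2 fold change was 0.11 (SE 0.644, 95% interval -1.31 to 1.53, edgeR adjusted p = 0.92) with 12 libraries and 0.68 (SE 0.178, 0.30 to 1.07, adjusted p = 0.0104) with 11. It was -0.13 (adjusted p = 0.907) without TRB with T3 replicate 1 and -0.29 (adjusted p = 0.771) without replicate 3, so its sign turned there. In EV cells HR measured 26.5, 25.7 and 30.4 CPM with vehicle and 51.5, 34.7 and 61.5 CPM with T3, a 1.79-fold higher mean. These EV groups did not overlap.

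FURIN, the protease, had the highest vehicle level of the 6 genes per length of exon. It measured 68.5, 72.0 and 66.2 CPM in TRB with vehicle and 460.2, 35.1 and 496 CPM in TRB with T3. In EV cells the values were 58.6, 54.7 and 59.6 CPM with vehicle and 99.7, 66.7 and 114 CPM with T3. Every T3 library except TRB replicate 2 lay above the vehicle libraries of its own cells. The log2 fold change in TRB cells was 2.26 (SE 0.681, 95% interval 0.76 to 3.77, edgeR adjusted p = 0.0485) and 2.84 (SE 0.163, adjusted p = 5.8e-08) with 11 libraries. With 12 libraries the call was marginal: it was lost on leaving out any 1 of the 11 libraries other than TRB with T3 replicate 2, at adjusted p of 0.0628 to 0.147. It was also lost with upper-quartile scaling (0.054) and with the TRB groups alone (0.251). The ratio of means was 4.80, or 6.94 without replicate 2, in TRB cells and 1.62 in EV cells.

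ADSSL1, the adenylosuccinate synthetase, had vehicle means of 7.61 CPM in TRB and 7.92 CPM in EV cells. It measured 7.52, 7.75 and 7.55 CPM in TRB with vehicle and 35.0, 14.4 and 41.1 CPM in TRB with T3. In EV cells it measured 5.43, 9.15 and 9.19 CPM with vehicle and 13.3, 13.1 and 15.2 CPM with T3. All T3 libraries lay above all vehicle libraries, replicate 2 of TRB included. The log2 fold change in TRB cells was 1.99 (SE 0.350, 95% interval 1.22 to 2.76, edgeR adjusted p = 0.00334), and 2.36 (SE 0.166, adjusted p = 3.55e-07) with 11 libraries. The call was lost only with the TRB groups fitted alone (adjusted p = 0.0668) among the settings tried. The ratio of means was 3.97 in TRB cells, 5.0 without replicate 2, and 1.75 in EV cells.

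C2orf54 was near silent without hormone and showed the largest T3 response of the 6 genes. It measured 1.22, 1.21 and 1.01 CPM in TRB with vehicle, from 12 to 14 counts, and 348, 72.5 and 395 CPM in TRB with T3. In EV cells it measured 1.30, 0.899 and 0.827 CPM with vehicle, from 6 to 11 counts, and 20.2, 13.9 and 23.3 CPM with T3. The lowest TRB library with T3 lay above the highest EV library with T3, and all T3 libraries lay above all vehicle libraries. In TRB cells the log2 fold change was 7.88 (SE 0.657, 95% interval 6.43 to 9.33, edgeR adjusted p = 2.94e-05), the 16th highest of all genes. It was 8.38 (SE 0.216, adjusted p = 6.16e-11) with 11 libraries. The mean rose 237-fold, or 324-fold without replicate 2, against 19.0-fold in EV cells, where it had the 3rd highest log2 fold change. The few counts in vehicle limit the precision of these ratios.

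FAM129A, the stress-responsive protein, was the member that fell. It measured 13.0, 16.3 and 14.4 CPM in TRB with vehicle and 4.13, 3.24 and 4.37 CPM in TRB with T3. In EV cells it measured 21.3, 24.8 and 23.1 CPM with vehicle and 10.7, 9.40 and 7.09 CPM with T3. The groups did not overlap in either cell line, and replicate 2 was close to its fellow replicates. The log2 fold change in TRB cells was -1.88 (SE 0.212, 95% interval -2.35 to -1.42, edgeR adjusted p = 0.000206), and -1.74 (SE 0.188, adjusted p = 1.54e-05) with 11 libraries. Mean CPM was 3.73-fold lower with T3 in TRB cells, 3.43-fold lower without replicate 2, and 2.55-fold lower in EV cells.

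**Figure D2:**
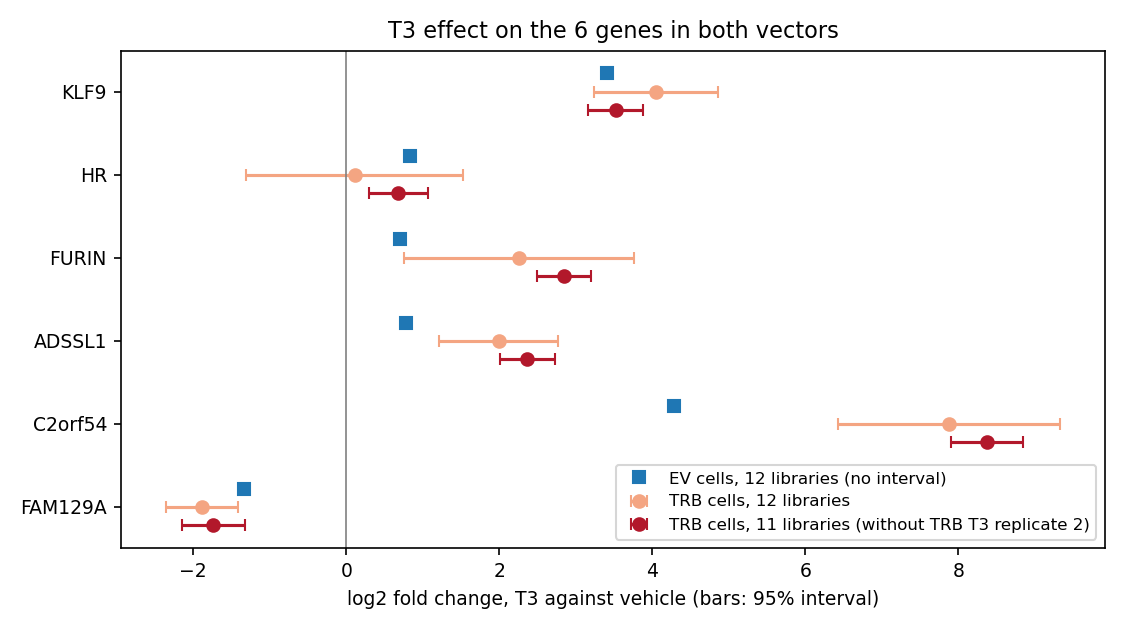
T3 effect on each of the 6 genes as a log2 fold change against vehicle (x axis) in EV cells (squares, no interval because the genes were chosen on these libraries) and in TRB cells with 12 or 11 libraries (circles, bars are 95% intervals). C2orf54 lies farthest right at 7.88 in TRB cells and 4.28 in EV cells, and the 12-library interval of HR spans 0.

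TRB with T3 replicate 2 departed from its fellow replicates by different amounts in the 6 genes. HR (65.7% GC, above 97.3% of genes with a value) and FURIN (61.7%, above 90.0%) differed from the mean of replicates 1 and 3 by -3.77 and -3.76 on the log2 CPM scale. C2orf54 (59.0%) differed by -2.35 and ADSSL1 (49.96%) by -1.39. KLF9 (46.3%) stood 1.29 higher, whereas FAM129A, with the lowest GC content of the 6 (45.6%), differed by -0.37. That is below the middle 50% of genes in the nearest GC deciles, whose medians were 0.66 and 0.21. KLF9 lay above the middle 50% of those same deciles, whose upper ends were 1.02 and 0.64. ADSSL1 and FURIN lay below that of the decile nearest in GC content (lower ends -0.87 and -3.15), though FURIN was inside that of the highest decile. The median GC content of tested genes was 48.4%, and the 2 genes lowest in that library relative to replicates 1 and 3 are the 2 of the 6 with the highest GC content. What made this library differ was not tested.

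**Figure D3:**
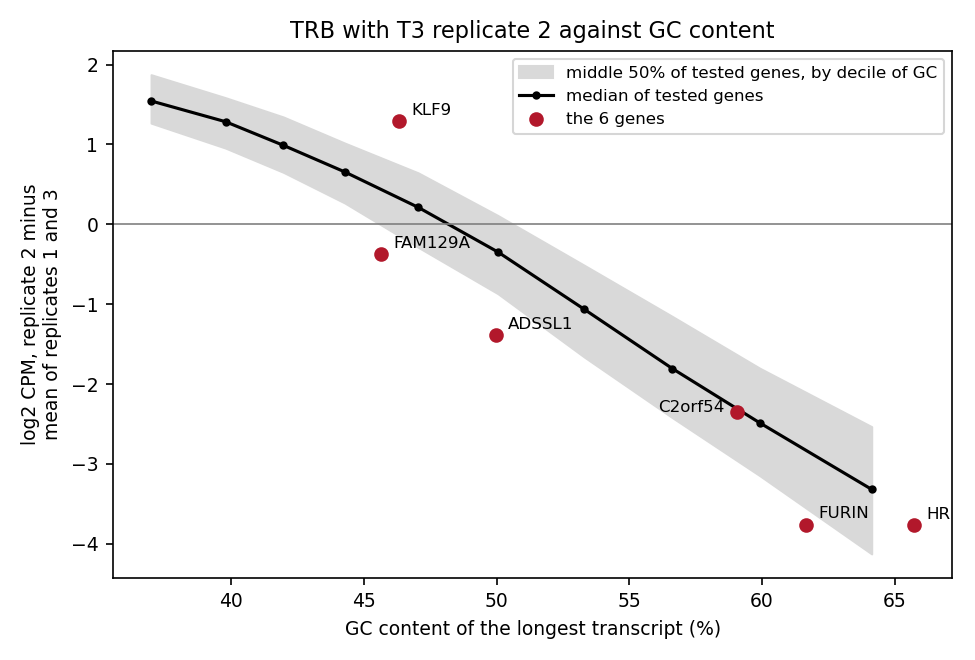
Log2 CPM of TRB with T3 replicate 2 minus the mean of replicates 1 and 3 (y axis) against GC content (x axis, %); the black line is the median of tested genes in each GC decile, the grey band their middle 50% and red points are the 6 genes. The line descends from 1.55 in the lowest decile to -3.32 in the highest, and HR and FURIN lie near its lower end.

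Without hormone the means of the 6 genes differed between TRB and EV cells by 1.58-fold or less. KLF9 was 1.496-fold and FAM129A 1.58-fold lower in TRB than in EV cells by mean CPM, while HR, FURIN, ADSSL1 and C2orf54 stood at 1.16, 1.20, 0.960 and 1.13 times the EV mean. The TRB and EV libraries did not overlap for KLF9, HR, FURIN and FAM129A, which is 4 of 6 where 36.3% of tested genes did not overlap. With T3, C2orf54 stood 14.2-fold, FURIN 3.53-fold and ADSSL1 2.18-fold higher in TRB than in EV cells. Without TRB with T3 replicate 2 these ratios were 19.4, 5.11 and 2.75. FAM129A was 2.31-fold lower, or 2.13-fold without that library. KLF9 was 1.05 times the EV level with all libraries and 0.705 times without replicate 2, and HR was 0.694 and 1.01 times. Groups with T3 did not overlap between the cell lines for C2orf54 and FAM129A, 2 of 6 against 26.3% of genes, and for all but HR without that library, 5 of 6 against 40.5%. These comparisons share the EV libraries that chose the genes and carry no test.

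The T3 effect in TRB cells minus that in EV cells, on the log2 scale, was largest for C2orf54, FURIN and ADSSL1. It was 3.59 for C2orf54, 1.57 for FURIN and 1.21 for ADSSL1, and 4.08, 2.16 and 1.63 with 11 libraries. For KLF9 it was 0.64 with 12 libraries and 0.10 with 11. HR differed by -0.73 and -0.13, and FAM129A by -0.54 and -0.42. In EV cells T3 against vehicle gave log2 fold changes of 3.41 for KLF9, 0.83 for HR, 0.70 for FURIN, 0.78 for ADSSL1, 4.28 for C2orf54 and -1.34 for FAM129A. As a description and not a test, 3 of 6 were called with 12 libraries, where 0.229% of genes were. All 6 were called with 11, where 7.33% of genes were. The EV libraries with T3 and with vehicle did not overlap for 6 of 6, as for 26.9% of genes. Nothing is read from these counts or shares, or from the EV ranks given above, since the same contrast helped to choose the genes. Both cell lines gave the same sign for each gene, apart from HR, whose 12-library value in TRB cells turns with the library left out.

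Divided by the summed exon length, levels can be set side by side between genes. In EV with vehicle FURIN was highest at 12.2 ± 0.556 CPM per kilobase (SD, n = 3). HR (3.13 ± 0.289), FAM129A (2.75 ± 0.208) and KLF9 (2.72 ± 0.153) followed with ranges that overlapped, then ADSSL1 (1.37 ± 0.374) and C2orf54 (0.364 ± 0.0926). With T3 the order in EV cells was KLF9 (28.8 ± 4.55) and FURIN (19.8 ± 5.17), whose ranges overlapped, then C2orf54 (6.91 ± 1.72) and HR (5.61 ± 1.55), which overlapped too, then ADSSL1 (2.40 ± 0.200) and FAM129A (1.08 ± 0.216). In TRB with vehicle FURIN (14.6 ± 0.619) again led, followed by HR (3.63 ± 0.0661), then KLF9 (1.82 ± 0.292) and FAM129A (1.74 ± 0.196), which overlapped, then ADSSL1 (1.32 ± 0.0219) and C2orf54 (0.413 ± 0.0429). In TRB with T3, over replicates 1 and 3, C2orf54 moved from last to first at 134 ± 11.9 CPM per kilobase (n = 2), above FURIN at 101 ± 5.40. KLF9 (20.3 ± 0.141), ADSSL1 (6.59 ± 0.741), HR (5.64 ± 0.510) and FAM129A (0.508 ± 0.0206) came after them.

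Other genes that T3 is known to induce in liver, heart, muscle, brain or other tissues were read from a list chosen with earlier results of these data known. Of 29 listed, 19 could be tested in TRB cells and 5 rose and 1 fell, which is 31.6% where 14.7% of all genes passed. The median log2 fold change was 0.47 against 0.01 over all genes. HIF1A, the hypoxia-responsive transcription factor, rose by 2.32 (SE 0.336, edgeR adjusted p = 0.000998), 1.81 with 11 libraries and 1.72 under GC offsets. ATP1B1, a sodium pump subunit, rose by 1.702 (SE 0.290, edgeR adjusted p = 0.00285), or 1.30 with 11. ATP2A2, the calcium pump SERCA2, rose by 1.29 (SE 0.127, adjusted p = 8.9e-05) and was at 504.9 ± 25.4 CPM with vehicle and 1233 ± 25.6 with T3 (SD, n = 3). The lipogenic enzymes ME1 and ACACA rose by 1.31 (adjusted p = 0.0157) and 0.71 (adjusted p = 0.014), and CPT1A, which admits fatty acids to mitochondria, fell (log2 fold change -0.93, edgeR adjusted p = 0.00736). With 11 libraries ATP2A2 stood at 1.32, ME1 at 0.86, ACACA at 0.89 and CPT1A at -0.69, all past the threshold. The ME1 call was lost without TRB with vehicle replicate 1 (adjusted p = 0.0561) or 3 (0.0503) in edgeR, and that of ACACA without replicate 2 (0.0796) or 3 (0.0688) or with no count filter (0.0855). With the TRB groups fitted alone, ATP1B1 (0.054), ME1 (0.13), CPT1A (0.145) and ACACA (0.179) lost their calls in edgeR. With 11 libraries 12 of 20 rose and 3 fell (75%, median 0.66, against 33.3% of all genes). SLC16A3, a lactate exporter, was among those, at 2.91. The gene that joined the 19 was DIO3, with 43 and 51 counts in TRB with T3 replicates 1 and 3. Every library of the other groups had 1 to 3 counts of it. It thus passed the count filter only through the group where it was high, and its level there is no support. The 11-library counts and shares of this list, here and below, include it. In EV cells with T3, edgeR called 0 of the 19, 1 had an unadjusted p under 0.05 and DESeq2 called 1; with 11 libraries SLC16A3 rose and PPARGC1A and SLC2A1 fell, 3 of 20 where 7.33% of all genes passed. None of 5 genes listed as repressed by T3, such as TSHB, had enough counts to be tested.

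Relatives of the 6 genes, by family or by biochemical partnership, were read next. Of 25 listed, 17 were tested in TRB cells, and 3 rose and 1 fell (23.5%, median log2 fold change 0.10, where 14.7% of all genes passed). PCSK5, a proprotein convertase like FURIN, rose from 43.7 ± 0.236 to 95.9 ± 2.40 CPM (log2 fold change 1.14, SE 0.144, edgeR adjusted p = 0.000426). KDM3A, a histone demethylase of the same family as HR, rose by 1.03 (SE 0.200, adjusted p = 0.00569). AMPD3, the adenosine monophosphate deaminase that works in the same cycle as ADSSL1, rose by 1.34 (SE 0.323, adjusted p = 0.018); its call was lost without any TRB vehicle replicate or without TRB with T3 replicate 1 or 3, at adjusted p of 0.0515 to 0.0800. VDR, the vitamin D receptor that HR binds, fell from 27.0 ± 1.85 to 12.2 ± 0.133 CPM (log2 fold change -1.15, SE 0.152, edgeR adjusted p = 0.000557). With 11 libraries PCSK5 stood at 1.16, KDM3A at 0.83, AMPD3 at 1.705 and VDR at -1.10, and in all 7 of 17 rose and 3 fell (58.8%, where 33.3% of all genes passed). With the TRB groups fitted alone, AMPD3 (0.178) and KDM3A (0.087) lost their calls in edgeR. KLF13, a Krüppel-like factor related to KLF9, was at 145 CPM with vehicle and 142 with T3 in TRB cells. Without replicate 2 its T3 mean was 174 CPM (166 to 182, n = 2), above the vehicle range of 140 to 148. PCSK1, PCSK2, AMPD1 and MAB21L1 had no count in any library. In EV cells with T3 edgeR called 0 of 17, 1 had an unadjusted p under 0.05 and DESeq2 called 1. With 11 libraries 3 of 17 rose there (17.6%, where 7.33% of all genes passed), the convertases PCSK5 (0.47, edgeR adjusted p = 0.0162), PCSK6 (0.38, 0.0359) and PCSK7 (0.47, 0.011).

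**Figure D4:**
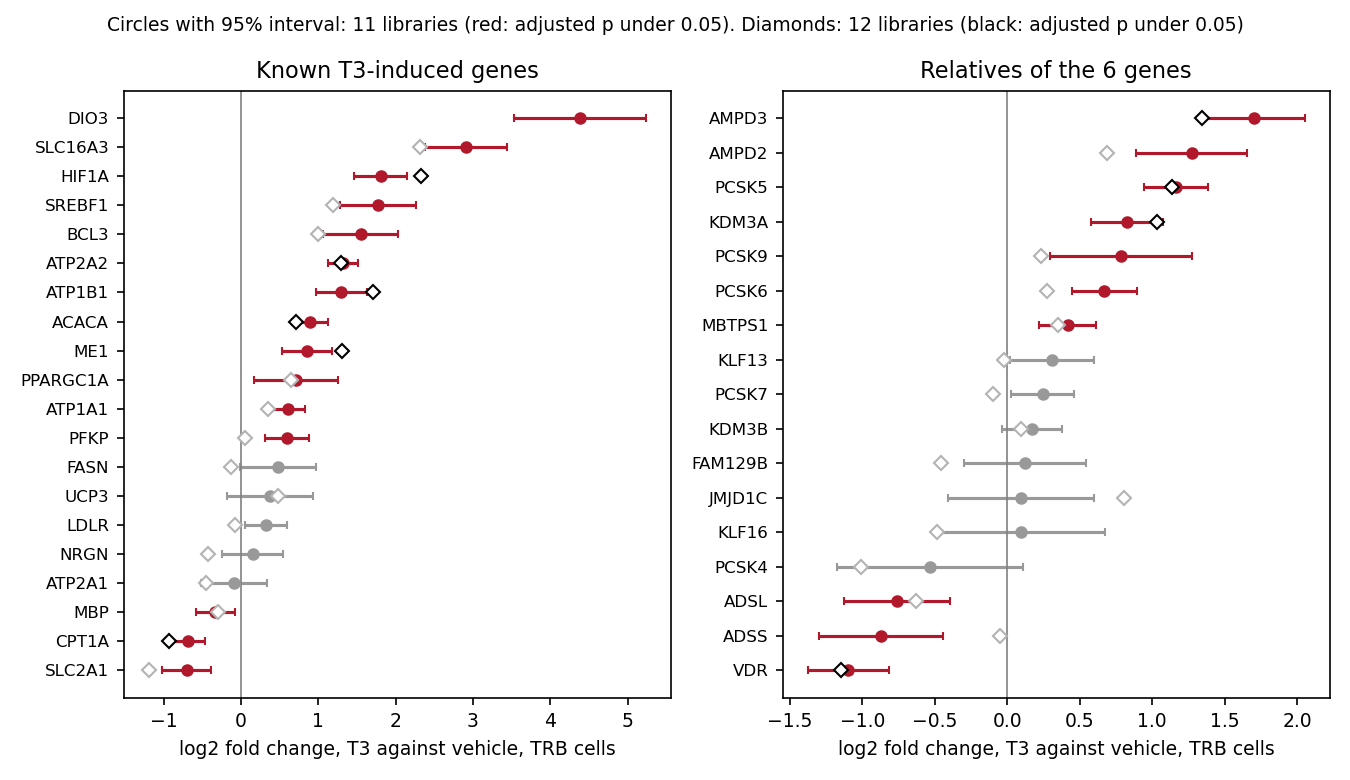
T3 effect in TRB cells (x axis, log2 fold change) for the known T3-induced genes (left) and the relatives of the 6 genes (right); circles with 95% intervals are from 11 libraries (red where the adjusted p is under 0.05) and diamonds from 12 (black outline where it is under 0.05). In the left panel 12 genes lie to the right of 0 in red and 3 to the left, and in the right panel 7 and 3.

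Substrates that FURIN cuts were also read. Of 18 listed, 16 were tested, and 2 rose and 1 fell (18.8%, near the 14.7% of all genes; median log2 fold change 0.15 against 0.01). ADAM10, a membrane protease, rose by 1.61 (edgeR adjusted p = 0.0218), PDGFA, a growth factor, by 0.71 (adjusted p = 0.0113), and the receptor NOTCH1 fell (log2 fold change -1.97, edgeR adjusted p = 0.0358). Those calls are near the threshold: leaving out any TRB vehicle replicate ended the ADAM10 call (0.0608 to 0.0808 by edgeR), leaving out TRB vehicle replicate 1 or 3 ended that of PDGFA (0.0509 and 0.0504), and leaving out any of 10 libraries ended that of NOTCH1 (0.0501 to 0.105), TRB with T3 replicates 2 and 3 being the exceptions. With the TRB groups fitted alone ADAM10 (0.137), PDGFA (0.141) and NOTCH1 (0.226) lost their calls in edgeR, as did PDGFA with no count filter (0.146). With 11 libraries ADAM10 stood at 0.94, PDGFA at 0.72 and NOTCH1 at -1.44, and in all 6 of 16 rose and 3 fell (56.2%, where 33.3% of all genes passed; median 0.06). In EV cells edgeR called 0 of 16 with 12 libraries, where 0 had an unadjusted p under 0.05 and DESeq2 called 0, and 1 of 16 with 11.

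Genes whose levels followed each of the 6 most closely were ranked by Pearson's correlation of log2 CPM over 11 libraries, among 10095 genes whose mean log2 CPM reached 3. All genes were read in the same libraries and 4 groups, so these are descriptions without p-values. The 3 closest to KLF9 were CHD3 (0.985), SEPT8 (0.984) and HTR1D (0.978). PHB (0.994), POR (0.988) and TMEM120B (0.977) were closest to HR. FURIN ran with TINAGL1 (0.996), SLC37A1 (0.995) and PFKFB3 (0.995), and ADSSL1 with TBC1D8 (0.987), BTN3A1 (0.986) and VSIG10 (0.985). MGLL (0.997), IRF1 (0.995) and PLAUR (0.995) were closest to C2orf54, and SRD5A1 (0.981), PPA1 (0.980) and PPP1R3D (0.977) to FAM129A. With all 12 libraries none of the 3 genes nearest to KLF9 or FAM129A was the same, and 2 of 3 were for HR and FURIN and 1 of 3 for ADSSL1 and C2orf54. Among the 6 themselves, ADSSL1 and C2orf54 were the most alike over 11 libraries (0.961, and 0.939 over 12), while KLF9 and FURIN had the correlation nearest to 0 over those 11 (0.584, and 0.327 over 12). FAM129A correlated negatively with each of the others over the 11, from -0.76 with KLF9 to -0.95 with C2orf54. KLF9 and HR correlated at 0.805 over 11 libraries and -0.11 over 12.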

How the data were processed

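Total RNA of the 12 libraries was sequenced. The authors deposited raw read counts per gene symbol (56832 symbols), ending in 5 htseq-count summary lines, which were left out (not unique 19.0% to 92.0%, no feature 2.14% to 24.4%, ambiguous 0.258% to 1.81% of what each file counts). Per the submitters' processing notes, CASAVA 1.7, STAR 2.7, HTSeq 0.10, DESeq2 and hg38 were used. Strand setting and annotation are not given in the sources used here, so reads of close paralogs are uncertain. The authors' normalized table was not used.

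Counts were filtered with filterByExpr (minimum count 10, minimum total 15) and scaled by trimmed mean of M-values. A quasi-likelihood model with 4 group means was fitted to 12 libraries, or to 11, in edgeR 4.0.16 under R 4.3.3, two-sided, with Benjamini-Hochberg adjustment over all tested genes at 0.05. Standard errors derive from the log2 fold change and its F statistic. CPM are scaled counts, and log2 CPM used a prior count of 2. On simulated counts for this T3 contrast in TRB cells (196 genes changed), 98.0% of 4-fold and 94.9% of 2-fold changes were recovered at the spread of the 11 libraries (biological coefficient of variation 0.131, 14155 genes), with 3.08% of calls false. At the spread of all 12 (0.329, 14177 genes) the shares were 83.5% and 11.1%, with 6.12% of calls false. Both simulations had 12 libraries and 1 common spread. The real spread ran from 0.0802 in TRB with vehicle to 0.619 in TRB with T3, and the 11-library fit has fewer TRB libraries with T3. These shares therefore do not give the error rates of the fits above. Replicate pairs had a chi-square per degree of freedom of 2.85 to 220.3, so no library was a duplicate. GC content came from GENCODE 29 by symbol (12485 of 14431 genes, 86.5%). Upstream sequences came from RefSeq on GRCh38.p14.

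The members and lists were chosen with earlier results of these data known, and no pattern those results showed is independent support. Beside the 6 genes, the text names up to 6 genes a list that passed in TRB cells in the same direction with 12 and 11 libraries, by size of change; relatives with a count by group mean; and the 3 genes of highest correlation with each member. Other genes named were chosen after their values were seen. Alternatives were DESeq2 1.42.0, other scalings, no count filter, the compared groups alone, a replicate block, GC offsets (spline with 5 degrees of freedom) and leaving out each library. The block on 11 libraries was added after the data were seen.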

Additional observations from a re-analysis of the deposited data

Results flagged for a closer look

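The T3 effect differed between TRB and EV cells, by edgeR's test of the difference itself, for 3 of the genes named from the lists for passing in TRB cells. That T3 effect in TRB cells is itself part of the difference. By list, 3 of 19 known T3-induced genes, 1 of 17 relatives and 0 of 16 furin substrates were called for the difference. With 11 libraries the shares were 45%, 23.5% and 31.25%. The share over all tested genes is not given here, so nothing is read from these counts. For HIF1A the effect in TRB cells minus that in EV cells was 2.50 on the log2 scale (edgeR adjusted p = 0.0191), and 1.98 (adjusted p = 8.23e-05) with 11 libraries. Under GC offsets it was 1.39 (adjusted p = 0.000379 in edgeR), and 1.5 on 11 libraries. Mean CPM rose from 119 to 595 in TRB cells, 403 without replicate 2, and was 168 and 148 in EV cells. Its call was lost without TRB vehicle replicate 1 or 3, EV vehicle replicate 2 or 3, or EV with T3 replicate 1 or 3 (edgeR adjusted p of 0.0501 to 0.0618).

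For ATP2A2 the difference was 1.04 (edgeR adjusted p = 0.0132), and 1.07 (adjusted p = 0.000141) with 11 libraries. Its mean stood at 542 CPM with vehicle and 644 CPM with T3 in EV cells. The call was lost without any TRB vehicle replicate, EV vehicle replicate 2 or 3, or EV with T3 replicate 1 (0.0504 to 0.0623), and with no count filter (0.131), by edgeR.

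VDR moved the other way, with a difference of -1.001 (edgeR adjusted p = 0.0351), and -0.95 (adjusted p = 0.00296) with 11 libraries. Its mean stood at 29.1 CPM with vehicle and 26.2 CPM with T3 in EV cells. The call was lost on leaving out any 1 library other than TRB with T3 replicate 2 (0.0540 to 0.120), with no count filter (0.29), under the replicate block (edgeR adjusted p = 0.0543), under GC offsets, where the difference was -0.54 (0.286), and under both together (-0.53, 0.267).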

How the results depend on the processing

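KLF9, C2orf54 and FAM129A kept their direction and their call for T3 in TRB cells in 22 of 22 other settings, with adjusted p up to 0.0107, 0.00962 and 0.0185 in edgeR. ADSSL1 passed in 21, FURIN in 8 and HR in 5. ADSSL1 lost its call with the compared groups alone (2.0, edgeR adjusted p = 0.0668). FURIN did not pass with upper-quartile factors (2.25, 0.054), the compared groups alone (2.29, 0.251) or, in edgeR, the replicate block (1.97, adjusted p = 0.0875), and gave 1.89 to 2.84 when a library was left out. HR passed under GC offsets (0.63, edgeR adjusted p = 0.000784), GC offsets on 11 libraries (0.64, 7.75e-06), the replicate block with GC offsets (0.64, 0.00186) and the replicate block on 11 libraries (0.59, 0.0107). It turned to -0.17 under the replicate block (edgeR adjusted p = 0.868), and ran from -0.29 to 0.68 on leaving out a library, -0.13 without TRB with T3 replicate 1. The 5 members called became 3 with the compared groups alone, 4 under the replicate block and 4 to 6 on leaving out a library.

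The replicate numbers were not taken as pairs. In each comparison at least 1 same-numbered pair of libraries had deviations correlated at 0.1 or less. The values were 0.27, 0.17 and -0.15 within TRB cells and -0.03, 0.43 and 0.14 within EV cells. Across the vehicle groups they were 0.14, 0.12 and 0.02, and across the T3 groups 0.06, 0.73 and 0.64. Libraries with different numbers were not correlated, so these values cannot show whether the numbers mark pairs. Genes called for T3 in TRB cells (2128) became 634 with the compared groups alone, 5299 under GC offsets, 7067 under GC offsets on 11 libraries, 2278 under the replicate block, 5338 under the block with GC offsets, 5223 under the block on 11 libraries, 3101 in DESeq2 and 1256 to 4938 on leaving out a library. In EV cells (33) they became 172 in DESeq2, 19 with no count filter, 200 with the compared groups alone, 18 under the block, 555 under GC offsets, 2198 under GC offsets on 11 libraries, 444 under the block with GC offsets, 1965 under the block on 11 libraries and 10 to 1087 on leaving out a library. Known T3-induced genes called (6) became 2 with the compared groups alone, 11 under GC offsets and under the block with them, 17 and 14 under GC offsets and the block on 11 libraries, and 4 to 15. Relatives (4) became 2, 10, 9, 11 and 10 in that order of settings, and 3 to 10 on leaving out a library. Furin substrates (3) became 5 in DESeq2 and under the block, 0 with the compared groups alone, 8 under GC offsets, 9 under the block with them, 12 and 9 on 11 libraries, and 0 to 9. The cause of these changes was not tested. Depth limits C2orf54 most, at 6 to 14 counts a library with vehicle.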

Other observations

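PPARGC1A, a coactivator of mitochondrial genes, was chosen after its values were seen. Its mean was 2.37 ± 0.499 CPM with vehicle and 3.71 ± 0.308 with T3 in TRB cells, and 3.15 ± 0.556 and 1.38 ± 0.372 in EV cells (SD, n = 3). The T3 effect in TRB minus EV cells was 1.80 in log2 units (edgeR adjusted p = 0.0306, SE 0.372) and 1.83 (adjusted p = 0.00699) with 11 libraries. Leaving out any 1 library other than TRB with T3 replicate 2 or EV with T3 replicate 2 ended the call (edgeR adjusted p of 0.0513 to 0.125). So did no count filter (0.105), GC offsets (1.24, edgeR adjusted p = 0.0957) and the replicate block with GC offsets (1.23, 0.0959). The value rests on 5 to 53 counts a library.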
